A study of Mus musculus with 160 samples.

Results

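The interferon regulatory factors are a family of transcription factors that includes those through which cells make and answer type I interferon. Of the 43432 genes in the table, 8 belong to the set described here, namely Irf1, Irf2, Irf3, Irf4, Irf5, Irf7, Irf8 and Irf9. They were listed by name, with earlier results of these data known. Their RNA was followed in cortex, striatum, tibialis muscle, heart and liver of R6/2 mice, a model of Huntington's disease that carries a fragment of the mutant human huntingtin gene as the transgene Tg(HDexon1)62Gpb. The R6/2 mice were given vehicle, 30 mg/kg or 100 mg/kg of CHDI-00390576, an inhibitor of class IIa histone deacetylases, by mouth 2 times a day, and wild-type mice were given vehicle. All the mice were on a C57BL/6J background, each arm held 8 mice (4 males and 4 females), and each of the 32 mice gave all 5 tissues, for 160 libraries of total RNA. The labels used here give no age, and no wild-type mice received the compound, so every dosed animal also carried the transgene.

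IRF3 and IRF7 are held in the cytoplasm until kinases downstream of nucleic acid sensors phosphorylate them, and they then switch on the interferon genes. Secreted interferon signals through JAK kinases to STAT factors, which join IRF9 to form the complex ISGF3, and ISGF3 drives a large set of target genes through the interferon-stimulated response element. Irf7 is itself one of those targets, whereas Irf3 is made constitutively. IRF1 activates and IRF2 antagonises related elements, and IRF1 is a mediator of gamma interferon responses. IRF4, IRF5 and IRF8 are best known from lymphoid and myeloid cells.

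Irf1, Irf2 and Irf7 are shown by their RefSeq promoter windows (GRCm38.p6, from 250 bases before to 50 after the annotated start, on the gene's strand), because Irf7 was higher in R6/2 mice in all 5 tissues and the windows of Irf1 and Irf2 hold matches to elements that interferon-activated complexes bind. Capitals mark the gamma-activated site TTCNNNGAA in Irf1 (bases 161 to 169, chr11:53769764-53770063, plus strand), the interferon-stimulated response element core GAAANNGAAA in Irf2 (bases 10 to 19, chr8:46739495-46739794, plus strand) and a TATAAA box in Irf7 (bases 222 to 227, chr7:141266375-141266674, minus strand).
Irf1: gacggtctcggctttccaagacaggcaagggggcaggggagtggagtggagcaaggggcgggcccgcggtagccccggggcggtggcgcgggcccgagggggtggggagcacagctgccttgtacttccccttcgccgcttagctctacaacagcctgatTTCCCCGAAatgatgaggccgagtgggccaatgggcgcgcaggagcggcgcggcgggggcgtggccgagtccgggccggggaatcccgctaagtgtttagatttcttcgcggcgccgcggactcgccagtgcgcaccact
Irf2: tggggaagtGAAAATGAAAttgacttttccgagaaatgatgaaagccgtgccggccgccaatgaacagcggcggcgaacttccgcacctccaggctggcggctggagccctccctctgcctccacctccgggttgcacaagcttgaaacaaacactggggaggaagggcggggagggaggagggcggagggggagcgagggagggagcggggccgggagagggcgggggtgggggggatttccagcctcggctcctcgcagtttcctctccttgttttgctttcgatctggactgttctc
Irf7: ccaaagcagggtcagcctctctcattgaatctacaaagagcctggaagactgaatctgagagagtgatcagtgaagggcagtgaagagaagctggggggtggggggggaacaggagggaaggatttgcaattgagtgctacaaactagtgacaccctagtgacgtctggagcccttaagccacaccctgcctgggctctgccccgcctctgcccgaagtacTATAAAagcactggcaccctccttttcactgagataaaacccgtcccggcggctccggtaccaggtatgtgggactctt
All 8 members matched a RefSeq window. Searched on both strands, the response element core was found in the window of Irf2 alone among them, the gamma-activated site in those of Irf1, Irf2 and Irf8, and TATAAA in those of Irf4, Irf7 and Irf8, and no match overlapped a match to another of these motifs. Of all 32851 windows, 3.44% held the response element core, 8.3% the gamma-activated site and 13.6% TATAAA, and of 27 windows of ISGF3 target genes 40.7% held the response element core. The Irf7 window printed above holds neither interferon element within its 300 bases.

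The libraries held 30148000 to 39043000 summed expected counts (median 34032000). Tissue marker genes had their highest median in the tissue of each label. Single libraries of the 2 brain regions overlapped for 3 markers, in FPKM, a level scaled by gene length and depth. The lowest cortex and highest striatum library had 23.06 and 27.63 for Neurod6 and 3.24 and 3.61 for Rorb. For Drd2 the lowest striatum library had 3.38 and the highest cortex library 10.06. Gm12695, known as the insertion site of this transgene, was higher in each of the 120 R6/2 libraries (lowest 0.58 CPM, counts scaled to the library's total) than in any of the 40 wild-type libraries (highest 0.266 CPM). Y-linked RNA was present in 2 wild-type brain libraries labelled female (cortex female 3 and striatum female 2), which come from the same animal number. A share of long transcripts under 85% of the tissue median was found in 9 libraries. Results that move without these libraries are named beside their values or in the section on how the results depend on the processing. That section gives the rule by which counts were compared. All 8 members passed the filter on low counts in all 5 tissues, among 14931 to 17508 genes tested per tissue.

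Irf7, the inducible master regulator of interferon genes, was higher in vehicle-dosed R6/2 mice than in wild-type mice in all 5 tissues, by 2.69-fold to 4.92-fold. In cortex Irf7 stood at 6.78 CPM in the lowest, 8.13 in the median and 9.44 in the highest R6/2 vehicle library, against 1.13, 1.54 and 2.27 CPM in wild-type libraries. In striatum it stood at 5.51, 6.75 and 7.86 CPM in R6/2 vehicle libraries, against 1.10, 1.35 and 1.96 CPM in wild-type libraries. The lowest R6/2 library of each brain region was therefore above the highest wild-type library. In tibialis Irf7 reached 8.66, 14.3 and 15.5 CPM in R6/2 vehicle libraries, against 2.23, 2.91 and 4.82 CPM in wild-type libraries. In heart it reached 13.3, 17.2 and 22.9 CPM in R6/2 vehicle libraries, against 4.58, 6.61 and 8.71 CPM in wild-type libraries. In liver, where Irf7 was most abundant, it reached 55.0, 71.6 and 122.0 CPM in R6/2 vehicle libraries, against 14.3, 21.8 and 32.2 CPM in wild-type libraries. The ranges of the 2 genotypes did not overlap in any tissue, as for 9.81% of genes tested in cortex, 6.8% in striatum, 8.85% in tibialis, 0.563% in heart and 0.837% in liver in the same direction.

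The log2 difference of Irf7 between R6/2 vehicle and wild-type mice was 2.28 ± 0.10 (SE) in cortex with an edgeR adjusted p of 8.11e-19, and 2.30 ± 0.12 in striatum with an adjusted p of 5.89e-16. It was 2.12 ± 0.12 in tibialis (edgeR adjusted p = 6.68e-15), 1.43 ± 0.17 in heart (3.58e-06) and 1.70 ± 0.19 in liver (5.71e-07). Females gave 2.26 and males 2.31 in cortex, where the females include the wild-type library whose sex genes go against its label (2.16 in females without it), and females gave 1.89 and males 1.52 in liver. Leaving out each vehicle library in turn kept the cortical value between 2.23 and 2.35 and the liver value between 1.595 and 1.796.

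The size of the Irf7 difference itself depended on the tissue. These tests pair tissues by animal number, and for 1 wild-type animal the brain libraries carry Y-linked RNA against a female label, which puts its pairing in doubt. Without that animal all 24 differences between tissues past the threshold in the 8 members still passed, and 2 others passed as well, Irf7 in striatum over liver by 0.60 ± 0.20 (limma adjusted p = 0.0454) and Irf9 in tibialis over heart by 0.235 ± 0.08 (0.0415). In the per-mouse comparison of tissues, the effect in cortex exceeded that in heart by 0.83 ± 0.13 (limma adjusted p = 0.00015; 0.87 without that animal) and that in liver by 0.54 ± 0.17 (0.0258). The effect in striatum exceeded that in heart by 0.81 ± 0.18 (limma adjusted p = 0.00321), and the effect in tibialis exceeded that in heart by 0.67 ± 0.16 (0.00341). Cortex, striatum and tibialis were not told apart, with differences of 0.013 ± 0.12 between cortex and striatum, 0.16 ± 0.13 between cortex and tibialis and 0.15 ± 0.14 between striatum and tibialis. Heart and liver differed by -0.28 ± 0.15 (limma adjusted p = 0.243).

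Irf9, the DNA-binding subunit of ISGF3, was also higher in R6/2 vehicle mice in all 5 tissues, by a smaller amount than Irf7. In tibialis Irf9 stood at 11.3, 13.7 and 15.1 CPM (lowest, median, highest) in R6/2 vehicle libraries, against 7.22, 8.42 and 10.01 CPM in wild-type libraries. In liver it stood at 34.4, 39.2 and 42.9 CPM in R6/2 vehicle libraries, against 18.0, 27.6 and 32.9 CPM in wild-type libraries. All 8 R6/2 libraries lay above the wild-type range in cortex, tibialis and liver, as for 9.81%, 8.85% and 0.837% of genes tested there. In striatum 7 of 8 did, and in heart 5 of 8. The log2 difference of Irf9 was 0.43 ± 0.07 in cortex (edgeR adjusted p = 4.43e-06), 0.48 ± 0.09 in striatum (7.74e-05), 0.68 ± 0.06 in tibialis (1.16e-10), 0.45 ± 0.09 in heart (0.00195) and 0.54 ± 0.09 in liver (9.21e-05). With all animals none of the 10 tissue pairs differed past the threshold in the Irf9 effect, the closest being tibialis over heart by 0.21 ± 0.08 (limma adjusted p = 0.0522). The 2 members higher in all 5 tissues were thus Irf7 and Irf9, while 0.474% of the 13072 genes tested in all 5 tissues were higher in each of them. Irf9 shares 123 bases with Rnf31 on the same strand, where reads could be assigned to either gene.

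**Figure D1:**
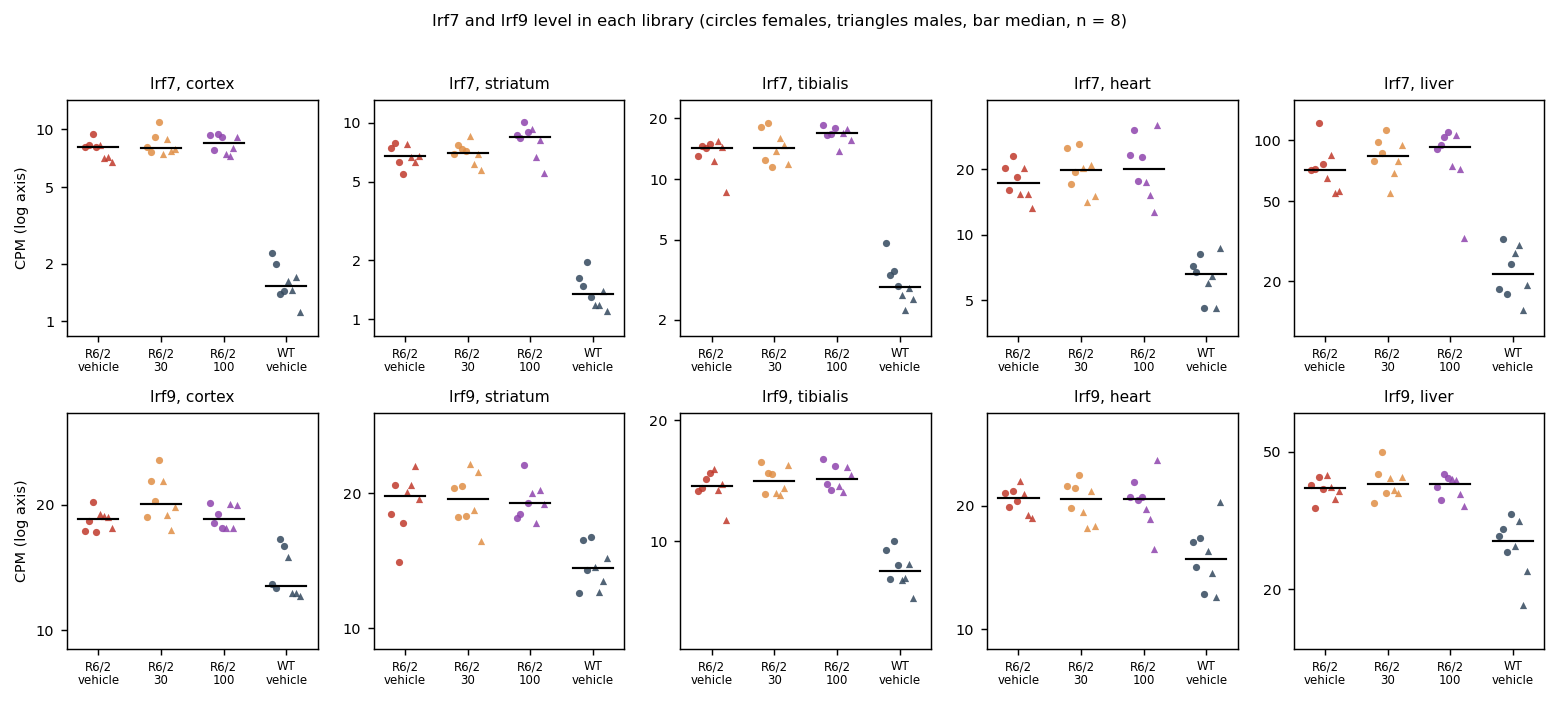
Irf7 (upper panels) and Irf9 (lower panels) in CPM on a log axis in each library of the 5 tissues, for R6/2 mice given vehicle, 30 mg/kg or 100 mg/kg and wild-type mice given vehicle. Circles are females, triangles are males and bars are medians of 8 mice, and each R6/2 library lies above the wild-type range for Irf7 in R6/2 vehicle mice, whose median in cortex is 8.13 CPM against 1.54 CPM in wild-type mice.

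Over the whole family, R6/2 vehicle mice differed from wild-type mice in 3 members higher and 2 lower in cortex, 4 higher and 2 lower in striatum, 3 higher and 1 lower in tibialis, 5 higher in heart, and 3 higher in liver. The same test called 53.9% of all genes in cortex (28.1% higher, 25.8% lower), 42.4% in striatum (22.6% higher, 19.8% lower), 45.9% in tibialis (23.6% higher, 22.2% lower), 14.4% in heart (6.96% higher, 7.46% lower) and 12.8% in liver (6.5% higher, 6.32% lower). The 5 of 8 members called in cortex, 6 in striatum, 4 in tibialis, 5 in heart and 3 in liver are to be read against those shares. Without the libraries short of long transcripts, 7 members were higher in heart, with Irf1 (0.20, edgeR adjusted p = 0.00737) and Irf5 (0.51, 0.027) added, and 4 in liver, with Irf4 (0.70, 0.0293) added. The counts in striatum and tibialis were the same without them, and cortex held no such library. In the same tests no member differed between males and females in the size of the genotype effect (edgeR; 0 of 8 in each tissue, with 5 member and tissue combinations at an unadjusted p under 0.05). Of all genes, 0% were called for such a difference in cortex and striatum, 0.0508% in tibialis, 0.00632% in heart and 1.79% in liver.

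Read over all 10 pairs of tissues, 24 of 80 tests of a member's genotype effect against that in another tissue passed. Tibialis and heart differed in 5 members, where 31.5% of all genes differed, and cortex and heart in 4, where 39.5% did. Cortex and liver differed in 3 members (26.4% of all genes), striatum and heart in 3 (30.5%), cortex and striatum in 2 (9.74%), striatum and tibialis in 2 (40.7%), striatum and liver in 2 (20.8%) and tibialis and liver in 2 (31.8%). Cortex and tibialis differed in 1 member, Irf5 (46.9%), and heart and liver in none (limma; 1 member, Irf2, at an unadjusted p under 0.05, and 6.15% of all genes called).

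**Figure D2:**
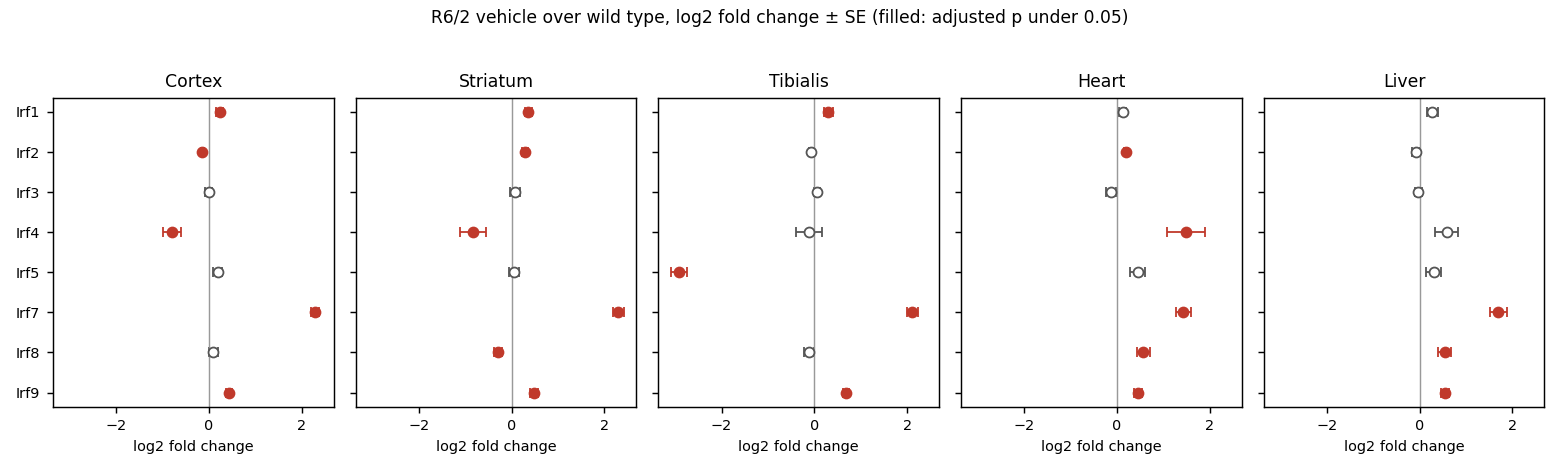
Log2 difference between R6/2 vehicle and wild-type mice for the 8 members in each of the 5 tissues, with bars of 1 SE, and filled points where the edgeR adjusted p was under 0.05. Irf7 and Irf9 are filled on the higher side in all 5 tissues, and the lowest point is Irf5 in tibialis at -2.92.

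Irf1, an activator of gamma interferon responses, was modestly higher in both brain regions and in muscle. In striatum Irf1 stood at 5.14, 5.36 and 5.95 CPM in R6/2 vehicle libraries, against 3.55, 4.20 and 4.80 CPM in wild-type libraries. The 2 groups did not overlap there, as for 6.8% of genes tested in striatum in that direction. The log2 difference was 0.36 ± 0.08 (edgeR adjusted p = 0.000387). In cortex the log2 difference of Irf1 was 0.23 ± 0.07 (edgeR adjusted p = 0.00595), with 5 of 8 R6/2 libraries above the wild-type range, and in tibialis 0.30 ± 0.09 (0.0103), with 7 of 8 above it. Heart (0.12 ± 0.08, edgeR adjusted p = 0.313) and liver (0.27 ± 0.11, adjusted p = 0.121) did not pass. Without wild-type male 4 alone, a heart library short of long transcripts, Irf1 passed in heart at 0.20 (edgeR adjusted p = 0.0397). Without wild-type male 2 it passed in liver at 0.34 (edgeR adjusted p = 0.0498). Irf1 overlaps Gm17334 on the opposite strand over 907 bases, and the sources used here do not state whether counting used strand.

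Irf2, which competes with IRF1 for its elements, moved in opposite directions in the 2 brain regions. In cortex Irf2 stood at 24.8, 27.1 and 27.97 CPM in R6/2 vehicle libraries, against 26.1, 29.2 and 31.9 CPM in wild-type libraries, a log2 difference of -0.14 ± 0.04 (edgeR adjusted p = 0.00179). In striatum it stood at 19.2, 21.95 and 22.5 CPM in R6/2 vehicle libraries, against 15.7, 16.8 and 23.0 CPM in wild-type libraries, a log2 difference of 0.28 ± 0.06 (edgeR adjusted p = 0.000612). The ranges overlapped in both regions. In the per-mouse test the effect in cortex minus that in striatum was -0.43 ± 0.06 (limma adjusted p = 0.000137). Heart was higher by 0.19 ± 0.04 (edgeR adjusted p = 0.00373), with 6 of 8 R6/2 libraries above the wild-type range, while tibialis (-0.07 ± 0.05) and liver (-0.074 ± 0.09) did not pass. On the log2 scale of FPKM (fragments scaled by gene length and library depth, plus 0.1), the Irf2 value in cortex was -0.064 and did not pass (limma adjusted p = 0.105), and the value in tibialis was 0.57. The median of all genes in tibialis was 0.63 on that scale, so Irf2 lay below it there.

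Irf3, the constitutive partner of IRF7, did not pass the test between R6/2 vehicle and wild-type mice in any tissue. Irf3 stood at 14.2, 15.7 and 18.7 CPM in R6/2 vehicle cortex, against 12.8, 16.1 and 18.7 CPM in wild-type cortex, a log2 difference of -0.0052 ± 0.07 (edgeR adjusted p = 0.959). In liver it stood at 34.5, 36.2 and 46.2 CPM in R6/2 vehicle libraries, against 33.3, 37.0 and 46.5 CPM in wild-type libraries (-0.034 ± 0.07, edgeR adjusted p = 0.805). The ranges lay almost on top of one another in both tissues. Striatum gave 0.075 ± 0.11 (edgeR adjusted p = 0.623), tibialis 0.061 ± 0.06 (0.429) and heart -0.13 ± 0.10 (0.421). Irf3 overlaps Bcl2l12 on the opposite strand over 1065 bases.

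Irf5, which acts downstream of Toll-like receptors in macrophages, fell in the tibialis of R6/2 vehicle mice, and no other member had a larger difference in any tissue. Its CPM there were 2.22, 2.49 and 3.24 (lowest, median, highest) in R6/2 vehicle mice, against 11.3, 18.0 and 29.6 in wild-type mice. All 8 R6/2 libraries were below every wild-type library, as for 10.5% of genes tested in tibialis, and the median expected count was 101 in R6/2 vehicle and 475 in wild-type libraries. The log2 difference was -2.92 ± 0.17 (edgeR adjusted p = 7.14e-15), and wild-type tibialis held 7.56 times as much. On the FPKM scale the means were 1.36 ± 0.17 in tibialis of R6/2 vehicle mice and 6.32 ± 1.94 in that of wild-type mice (SD, n = 8 each). Females gave -2.73 and males -3.12, and leaving out each vehicle library in turn kept the value between -3.01 and -2.80.

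The fall of Irf5 was seen in muscle and in no other tissue of R6/2 vehicle mice. Cortex gave 0.18 (edgeR adjusted p = 0.131), striatum 0.053 (0.731), heart 0.44 (0.0521) and liver 0.30 (0.252). The effect in tibialis minus that in heart was -3.25 ± 0.23 (limma adjusted p = 1.42e-08), and minus that in liver it was -3.17 ± 0.26 (4.58e-07). Cortex exceeded tibialis by 3.01 ± 0.22 (limma adjusted p = 1.08e-08) and striatum exceeded it by 2.88 ± 0.20 (3.15e-08). The heart value of Irf5 passed when any of 5 single libraries was left out, at 0.47 to 0.51 with adjusted p values of 0.023 to 0.0473 by edgeR. The cortical value passed at 0.24 (edgeR adjusted p = 0.0448) without R6/2 vehicle female 4.

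Irf5 overlaps Tnpo3, an importin gene, on the opposite strand over 1045 bases. In tibialis Tnpo3 differed by -0.07 ± 0.06 (edgeR adjusted p = 0.325), so the fall of Irf5 was not shared by its neighbour. Tissue macrophage markers had a median log2 difference of 0.24 in tibialis, against 0.03 over all genes tested. Of 10 tested, 3 were higher and 0 lower, where 23.6% of all genes were higher and 22.2% lower. These counts are no result about the list. The summed level of the markers was 89.0, 148.3 and 195.1 CPM in R6/2 vehicle tibialis, against 85.1, 113.2 and 174.2 CPM in wild-type tibialis. The 5 muscle fibre markers were all lower in R6/2 tibialis. Their summed level was 21550, 28400 and 36260 CPM in R6/2 vehicle mice, against 102400, 111000 and 121100 CPM in wild-type mice. Their part in the Irf5 result was not tested. In bulk tissue, fewer cells of a type and less RNA per cell cannot be told apart.

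**Figure D3:**
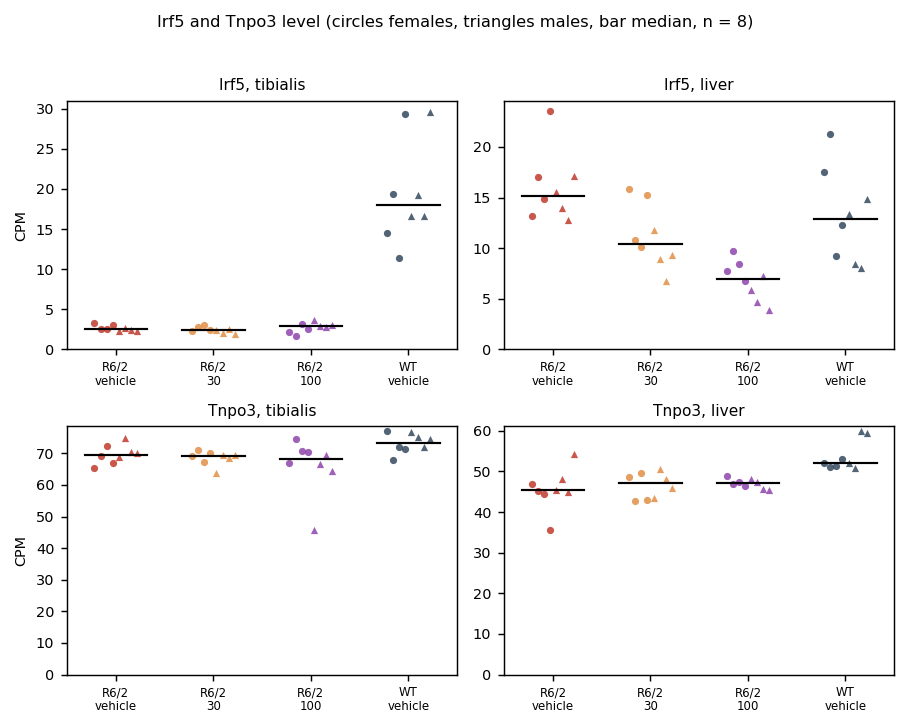
Irf5 and its overlapping neighbour Tnpo3 in CPM from 0 in each tibialis and liver library of the 4 arms, with circles for females, triangles for males and bars for medians of 8 mice. Irf5 lies between 2.22 and 3.24 CPM in R6/2 vehicle tibialis against 11.3 to 29.6 CPM in wild-type tibialis, and in liver it is lowest at 100 mg/kg (median 6.97 CPM against 15.2 CPM with vehicle).

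Irf4, a factor of lymphoid cells that is also known from adipocytes and neurons, was lower in the R6/2 brain and higher in the R6/2 heart. In cortex Irf4 stood at 0.213, 0.313 and 0.523 CPM in R6/2 vehicle libraries, against 0.46, 0.634 and 0.771 CPM in wild-type libraries, with 6 of 8 R6/2 libraries below the wild-type range. These are low counts, with a median of 10.5 in R6/2 vehicle and 19.5 in wild-type cortex. The log2 difference was -0.79 ± 0.20 (edgeR adjusted p = 0.00109). In striatum the medians were 0.295 CPM in R6/2 vehicle and 0.639 CPM in wild-type mice, a log2 difference of -0.83 ± 0.27 (edgeR adjusted p = 0.0143). Summed B cell and plasma cell markers were lower in R6/2 cortex too, at 9.38, 13.7 and 16.2 CPM in R6/2 vehicle libraries, against 20.04, 26.5 and 31.6 CPM in wild-type libraries. Most of that sum was Ighm, the immunoglobulin heavy chain gene, at a log2 difference of -1.28 ± 0.11 (edgeR adjusted p = 2.09e-11). Of 7 B cell and plasma cell markers tested in cortex, Ighm and Sdc1 were lower and 0 were higher, while Ms4a1, which defines B cells, did not pass the filter on low counts. The median log2 difference of the 7 was 0.195, against 0.016 over all genes, so the lower sum did not extend to most of them. In striatum 1 of 6 was higher and 1 lower (median 0.296). Over all genes 28.1% were higher and 25.8% lower in cortex, and 22.6% and 19.8% in striatum, so these counts are no result about the list. The part of this list in the Irf4 result was not tested. With the R6/2 vehicle and wild-type arms fitted alone, the striatal Irf4 value was -0.87 and did not pass (edgeR adjusted p = 0.0512).

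In heart Irf4 stood at 1.13, 2.79 and 12.4 CPM in R6/2 vehicle libraries, against 1.03, 1.38 and 2.53 CPM in wild-type libraries, with 5 of 8 R6/2 libraries above the wild-type range. The log2 difference was 1.49 ± 0.41 (edgeR adjusted p = 0.0141), and it rested on 1 library: without R6/2 vehicle female 4, at 12.4 CPM, it was 0.96 with an adjusted p of 0.0752 by edgeR. B cell and plasma cell markers moved in the same hearts, with 8 of 12 higher, 0 lower, a median of 1.33 against 0.013 over all genes, and sums of 37.9, 101.8 and 634.1 CPM in R6/2 vehicle hearts, against 26.4, 42.5 and 76.2 CPM in wild-type hearts. Adipocyte markers, of which 1 of 7 passed, had sums of 82.6, 108.6 and 365.0 CPM in R6/2 vehicle hearts, against 49.0, 87.4 and 168.8 CPM in wild-type hearts. Over all genes 6.96% were higher and 7.46% lower in heart, so the adipocyte count is no result about that list. The library with the highest Irf4 had a summed B cell level of 49.9 CPM, under the R6/2 median, and a summed adipocyte level of 235.8 CPM. The library with the highest Irf4 at 30 mg/kg, female 3, had the highest sums of its arm for B cell (140.9 CPM) and adipocyte markers (223.0 CPM), and so did male 3 at 100 mg/kg (108.7 CPM and 292.5 CPM). Neither list was tested as a part of the Irf4 result. The Irf4 effect in heart exceeded that in cortex by 1.89 on the log2 scale (limma adjusted p = 0.00229), that in striatum by 1.88 (0.00717) and that in tibialis by 1.27 (0.0155). Tibialis (-0.12) and liver (0.58, edgeR adjusted p = 0.11) did not pass for R6/2 vehicle against wild-type mice.

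Irf8, a lineage factor of microglia, macrophages and dendritic cells, was lower in the R6/2 striatum and higher in the R6/2 heart and liver. In striatum Irf8 stood at 4.49, 5.37 and 5.99 CPM in R6/2 vehicle libraries, against 6.03, 6.27 and 8.01 CPM in wild-type libraries. The 2 groups did not overlap, as for 8.45% of genes tested in striatum in that direction, and the log2 difference was -0.30 ± 0.09 (edgeR adjusted p = 0.00912). Of 18 microglia markers in striatum 1 was higher and 1 lower (median 0.064 against 0.036 over all genes), Cx3cr1 at -0.24 ± 0.09 and the protease gene Ctss at 0.73 ± 0.11. Their sum was 614.5, 643.9 and 915.7 CPM in R6/2 vehicle striatum, against 517.6, 647.2 and 696.6 CPM in wild-type striatum. Of all genes 22.6% were higher and 19.8% lower in striatum. On the log2 FPKM scale the striatal Irf8 value was -0.18 and did not pass (limma adjusted p = 0.145). In cortex Irf8 did not pass (0.095 ± 0.09, edgeR adjusted p = 0.383), and the effect in cortex exceeded that in striatum by 0.39 ± 0.08 (limma adjusted p = 0.00348).

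In heart Irf8 stood at 4.15, 5.64 and 9.12 CPM in R6/2 vehicle libraries, against 3.72, 3.88 and 5.55 CPM in wild-type libraries, a log2 difference of 0.57 ± 0.13 (edgeR adjusted p = 0.00528). In liver it stood at 5.79, 7.51 and 8.82 CPM in R6/2 vehicle libraries, against 2.97, 5.17 and 7.0 CPM in wild-type libraries, a log2 difference of 0.54 ± 0.15 (edgeR adjusted p = 0.0165). Above the wild-type range lay 5 of 8 R6/2 libraries in heart and 6 of 8 in liver. Myeloid markers moved with Irf8 in liver, where 10 of 17 genes of the microglia list were higher and 0 lower (median 0.66), and 4 of 12 tissue macrophage markers were higher and 0 lower (median 0.59). The macrophage sum was 333.9, 500.9 and 684.8 CPM in R6/2 vehicle livers, against 276.0, 367.1 and 491.2 CPM in wild-type livers, and it included Clec4f, a Kupffer cell gene, at 0.83 ± 0.19 (edgeR adjusted p = 0.00461). In heart 1 of 11 macrophage markers was higher, Lyz2, and 0 lower, with a median of 0.49 against 0.013 over all genes. Of 18 genes of the microglia list 3 were higher there and 0 lower (median 0.33). The macrophage sums were 194.2, 286.1 and 457.0 CPM in R6/2 vehicle hearts, against 161.5, 196.2 and 266.7 CPM in wild-type hearts. Dendritic cell markers gave 2 of 8 higher in heart and 3 of 9 higher in liver. The shares of all genes to set beside these lists were 6.96% higher and 7.46% lower in heart, and 6.5% and 6.32% in liver. The count of macrophage markers in heart lay near that share. The part of these cell types in the Irf8 result was not tested. Irf8 lies wholly inside the annotated span of Gm20388 on the same strand, so the assignment of its reads is uncertain. Gm20388 itself differed by -0.19 in striatum, 0.11 in heart and 0.0023 in liver, none of which passed.

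**Figure D4:**
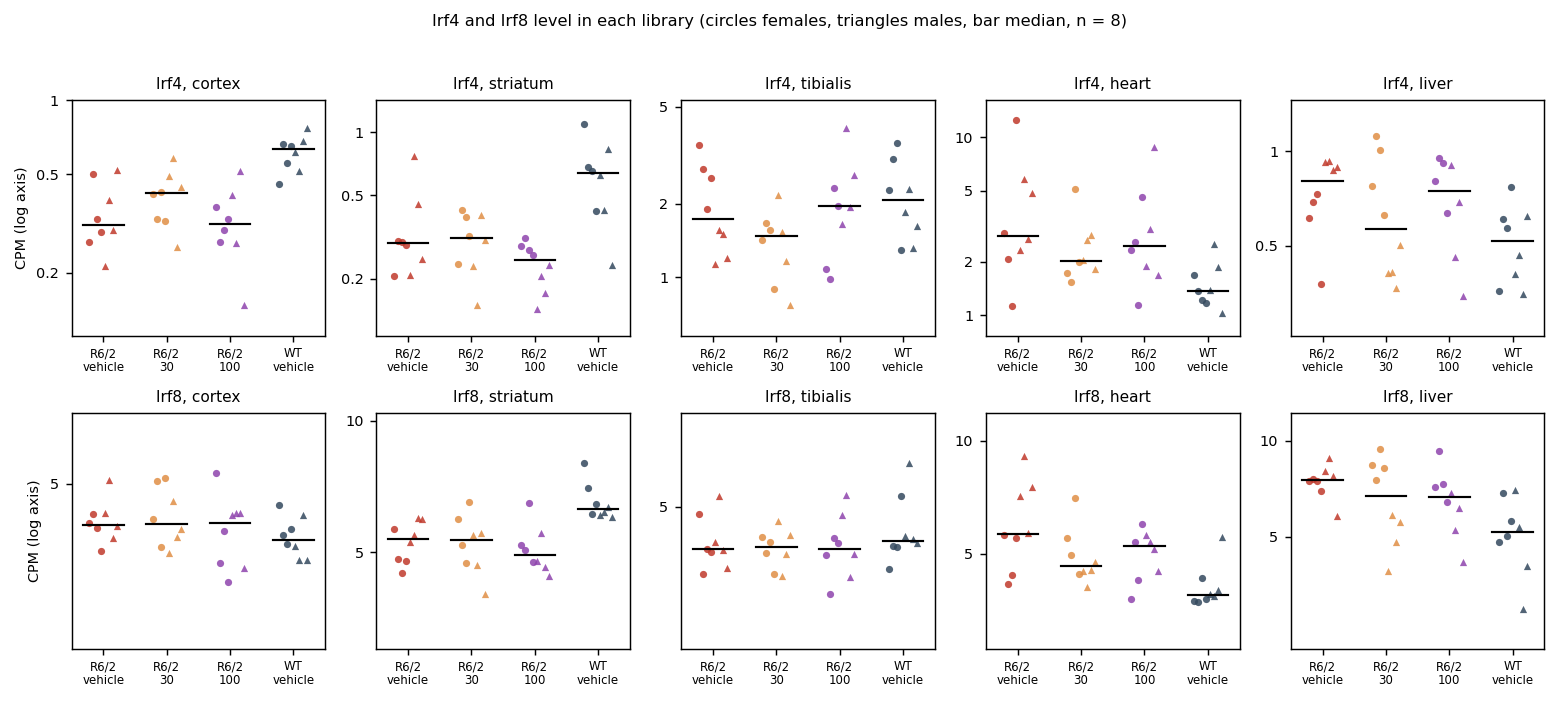
Irf4 (upper panels) and Irf8 (lower panels) in CPM on a log axis in each library of the 5 tissues and 4 arms, with circles for females, triangles for males and bars for medians of 8 mice. The highest Irf4 library is an R6/2 vehicle heart at 12.4 CPM, and R6/2 vehicle striatum (5.99 CPM at most) lies below wild-type striatum (6.03 CPM at least) for Irf8.

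The genes around the family were read from lists ordered by their place in the pathway, chosen like the members with earlier results of these data known. Of 21 interferon ligand genes, none passed the filter on low counts in any tissue, and their summed level was 0.204 CPM at most, in a cortex library at 100 mg/kg. Interferon receptors were higher for 3 of 6 genes in cortex, striatum and tibialis each, 0 of 6 in heart and 2 of 5 in liver, with 0 lower in each, beside shares of all genes higher of 28.1%, 22.6%, 23.6%, 6.96% and 6.5%. Their median log2 differences were 0.096 in cortex, 0.275 in striatum, 0.266 in tibialis, 0.036 in heart and 0.234 in liver. Among those called were the type I receptor subunit Ifnar2 in cortex (0.28 ± 0.05, edgeR adjusted p = 3.31e-06) and Ifnar1 in tibialis (0.25 ± 0.06, 0.000501). Ligand RNA was thus too low to test at this depth.

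Among the sensors, adaptors and kinases upstream of IRF3 and IRF7, 6 of 20 were higher and 2 lower in cortex (median 0.021 against 0.016 over all genes), 5 higher and 1 lower of 20 in striatum, 11 higher and 1 lower of 21 in tibialis (median 0.38), 9 higher and 0 lower of 21 in heart (median 0.20), and 5 higher and 3 lower of 21 in liver (median 0.16). Over all genes 28.1% were higher and 25.8% lower in cortex, and 22.6% and 19.8% in striatum. The counts of genes higher in those 2 tissues lay near these shares and are no result about the list. Elsewhere 23.6% of all genes were higher and 22.2% lower in tibialis, 6.96% and 7.46% in heart, and 6.5% and 6.32% in liver. Several of the sensors called higher are themselves known to be induced by interferon. Ddx58, the RNA sensor RIG-I, averaged 11.8 CPM in R6/2 vehicle and 5.64 CPM in wild-type cortex, a log2 difference of 1.06 ± 0.06 (edgeR adjusted p = 1.51e-16). Ifih1, the RNA sensor MDA5, was higher by 1.08 ± 0.07 in tibialis (edgeR adjusted p = 2.73e-13). Zbp1, a sensor of left-handed nucleic acids, averaged 20.8 CPM in R6/2 vehicle and 5.41 CPM in wild-type liver (2.00 ± 0.23, edgeR adjusted p = 1e-06). Irak1, a Toll-like receptor kinase, was lower in cortex (-0.22 ± 0.04) and striatum (-0.23 ± 0.04).

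JAK kinases and STATs gave 5 higher and 3 lower of 11 in cortex, 3 and 2 of 11 in striatum, 5 and 2 of 10 in tibialis, 4 and 0 of 11 in heart, and 1 and 0 of 11 in liver. Their medians were 0.13, 0.104, 0.137, 0.144 and 0.008 in these tissues. Over all genes 28.1% were higher and 25.8% lower in cortex, 22.6% and 19.8% in striatum, 23.6% and 22.2% in tibialis, 6.96% and 7.46% in heart, and 6.5% and 6.32% in liver, and the list's counts in striatum and liver lay near those shares for the genes higher. Stat2, which joins IRF9 in ISGF3, was higher in tibialis (0.75 ± 0.08, edgeR adjusted p = 4.99e-09) and heart (0.41 ± 0.10, 0.00779). Jak2, a kinase of the gamma interferon receptor, was lower in cortex (-0.17), striatum (-0.42) and tibialis (-0.50).

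The ISGF3 target genes were the list with the most members called. Over all genes 28.1% were higher in cortex, 22.6% in striatum, 23.6% in tibialis, 6.96% in heart and 6.5% in liver. These are the shares to set beside both lists given here. Of those tested, 30 of 32 were higher and 1 lower in cortex, 29 of 32 higher in striatum, 32 of 33 in tibialis, 31 of 33 in heart and 29 of 34 in liver, with none lower in the last 4 tissues. Their median log2 difference was 0.997 in cortex, 1.09 in striatum, 1.05 in tibialis, 0.72 in heart and 1.02 in liver, against 0.016, 0.036, 0.03, 0.013 and 0.005 over all genes tested in the same tissues. Oasl2, an antiviral oligoadenylate synthetase relative, averaged 10.8 CPM in R6/2 vehicle and 2.67 CPM in wild-type cortex (2.01 ± 0.11, edgeR adjusted p = 9.12e-16). Ifi44, an interferon-induced gene, was higher by 2.46 ± 0.24 in striatum, 2.25 ± 0.18 in tibialis and 2.19 ± 0.24 in liver. Ifit3, an antiviral gene, averaged 17.1 CPM in R6/2 vehicle and 6.77 CPM in wild-type hearts (1.34 ± 0.15, edgeR adjusted p = 2.4e-06). The targets of IRF1 and gamma interferon gave 14 higher and 1 lower of 18 in cortex, 13 and 1 of 18 in striatum, and 14, 13 and 15 of 19 higher with 0 lower in tibialis, heart and liver, at medians of 0.59, 0.79, 0.57, 0.54 and 0.79 over the 5 tissues in the order cortex to liver. Gbp3, a guanylate-binding protein, passed in all 5 tissues, from 0.86 ± 0.17 in heart to 2.01 ± 0.21 in liver.

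Negative regulators of the pathway gave 5 higher and 2 lower of 15 in cortex, 4 and 2 of 14 in striatum, 5 and 2 of 15 in tibialis, 4 and 0 of 15 in heart, and 5 and 0 of 14 in liver, with medians of -0.014, 0.022, 0.23, 0.066 and 0.16 in that order. Read against the shares of all genes given for the JAK kinases and STATs, the counts in cortex and striatum are no result about the list. Samhd1, a nucleotide hydrolase that limits nucleic acid sensing, was higher in all 5 tissues, for example by 0.58 ± 0.05 in cortex and 0.46 ± 0.11 in liver. Socs3, a feedback inhibitor of JAK kinases, was lower in cortex, at -1.10 ± 0.15 (edgeR adjusted p = 2.04e-07). Of the IRF2-binding protein genes, Irf2bp1, which codes for a corepressor that binds IRF2, was higher in cortex (0.43 ± 0.07) and striatum (0.54 ± 0.16), and in tibialis Irf2bp2 was higher (0.43 ± 0.15) and Irf2bpl lower (-0.36 ± 0.10).

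The compound moved 1 member in 1 tissue past the threshold when dosed R6/2 mice were set against vehicle-dosed R6/2 mice. At 30 mg/kg no member was called in any tissue (edgeR, 0 of 8 in each tissue, with 5 member and tissue combinations at an unadjusted p under 0.05), and no gene at all was called (0% in each tissue, edgeR). At 100 mg/kg the exception was Irf5 in liver, where 2.06% of all genes were called (1.39% higher, 0.676% lower). In the other tissues 0.00571% (cortex), 0% (striatum and tibialis) and 0.0126% (heart) of all genes were called at that dose. With DESeq2, 0 members were called at 30 mg/kg in any tissue.

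In R6/2 livers Irf5 stood at 12.8, 15.2 and 23.6 CPM (lowest, median, highest) with vehicle, 6.73, 10.4 and 15.8 CPM at 30 mg/kg, and 3.92, 6.97 and 9.71 CPM at 100 mg/kg. The wild-type libraries held 8.03, 12.9 and 21.3 CPM. All 8 livers at 100 mg/kg lay below every R6/2 vehicle liver, as for 0.0469% of genes tested in liver in that direction, and the livers at 30 mg/kg overlapped both groups. The log2 difference between 100 mg/kg and vehicle was -1.26 ± 0.17 (edgeR adjusted p = 6.87e-05), and Irf5 averaged 3.27 ± 1.03 FPKM at 100 mg/kg and 7.39 ± 1.08 FPKM with vehicle (SD, n = 8 each). The difference between 30 mg/kg and vehicle was -0.55 (edgeR adjusted p = 0.6) and that between 100 and 30 mg/kg was -0.71 ± 0.17 (0.169), so the 2 doses were not told apart, with 0.0067% of all liver genes and 0% in the other tissues called between them. Set against wild-type livers, Irf5 at 100 mg/kg was lower, at -0.96 (edgeR adjusted p = 0.000234).

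This fall of Irf5 passed under all 25 alternative settings, from -1.33 to -1.005, including -1.13 (edgeR adjusted p = 0.000903) without the 2 liver libraries short of long transcripts. The highest vehicle library, female 4 at 23.6 CPM, is one of those 2. Tnpo3 differed by 0.05 ± 0.06 at 100 mg/kg against vehicle in the same livers. Tissue macrophage markers summed to 128.9, 374.5 and 625.3 CPM at 100 mg/kg, against 333.9, 500.9 and 684.8 CPM in R6/2 vehicle livers, with a median log2 difference of -0.52 and 0 genes called by edgeR. Their part in the Irf5 result was not tested. In tibialis, where Irf5 was already low with vehicle, its log2 difference against wild-type mice was -3.02 at 30 mg/kg and -2.84 at 100 mg/kg.

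No other member passed between a dose and vehicle, although 8 member and tissue combinations had an unadjusted p under 0.05 at 100 mg/kg, with Irf5 in liver among them. Against wild-type mice, Irf7 was higher by 2.38 in cortex, 2.34 in striatum, 2.25 in tibialis, 1.58 in heart and 1.86 in liver at 30 mg/kg, and by 2.38, 2.55, 2.44, 1.70 and 1.87 in the same tissues at 100 mg/kg. Irf9 likewise passed against wild-type mice at both doses in all 5 tissues, from 0.44 in heart to 0.76 in tibialis. These comparisons share the wild-type mice with the vehicle comparison, so they are set side by side and not counted as further support. Members called against wild-type mice at 30 mg/kg numbered 3 higher and 2 lower in cortex, where 53% of all genes were called (27.7% higher, 25.4% lower), and 4 higher and 2 lower in striatum (38.6%, of which 19.3% higher and 19.3% lower). In tibialis they numbered 4 higher and 2 lower (44.7% of all genes, 22.7% higher and 22% lower), in heart 2 higher and 0 lower (6.94%, 2.58% higher and 4.36% lower) and in liver 2 higher and 0 lower (8.84%, 4.43% higher and 4.41% lower). At 100 mg/kg they numbered 3 higher and 2 lower in cortex (55.9% of all genes, 29.1% higher and 26.7% lower) and 4 higher and 2 lower in striatum (43.8%, 22.4% higher and 21.3% lower). In tibialis they numbered 3 higher and 2 lower (45.5%, 22.9% higher and 22.6% lower), in heart 2 higher and 0 lower (5.3%, 2.19% higher and 3.11% lower), and in liver 2 higher and 2 lower (15%, 7.61% higher and 7.44% lower).

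Smaller differences entered those counts in dosed mice. Irf3 in tibialis passed against wild-type mice at 30 mg/kg (0.23 ± 0.06, edgeR adjusted p = 0.0021) and at 100 mg/kg (0.20 ± 0.06, 0.007), but not with vehicle (0.061). Irf2 was lower than in wild-type mice in tibialis at both doses (-0.13 at 30 mg/kg and -0.18 at 100 mg/kg) and in liver at 100 mg/kg (-0.38 ± 0.09, edgeR adjusted p = 0.00313). Set against R6/2 vehicle livers, Irf2 at 100 mg/kg gave -0.30 (edgeR adjusted p = 0.0589), a value that passed by DESeq2, with the replicate block, and without either of 2 single libraries. Irf4 and Irf8 in heart, higher with vehicle, did not pass against wild-type mice at either dose (Irf4 0.70 at 30 mg/kg and 1.09 at 100 mg/kg; Irf8 0.29 and 0.28), and neither differed from vehicle past the threshold. Irf2 in heart (0.10 at 30 mg/kg and 0.092 at 100 mg/kg, edgeR adjusted p = 0.161 and 0.225) and Irf8 in liver (0.34 and 0.33, 0.173 and 0.143) likewise passed with vehicle but with neither dose. A call present with vehicle and absent with a dose does not show that the 2 differ.

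Between tissues of wild-type mice, the members had unlike distributions, given here as mean FPKM so that levels can be read across genes. Of all genes edgeR called 43.6% between cortex and striatum, 69.5% between tibialis and heart, 80.4% between heart and liver and 81.5% between tibialis and liver. Cortex differed from heart in 86.3%, from tibialis in 87.8% and from liver in 89.8% of genes, and striatum in 86.4%, 88% and 89.3% in the same order. Irf7 was highest in liver at 11.8 FPKM, then heart at 3.61, tibialis at 1.295, cortex at 0.92 and striatum at 0.786, and cortex and striatum were not told apart by edgeR (adjusted p = 0.251). Irf9 followed with 9.94 FPKM in liver, 5.62 in heart, 5.39 in cortex, 5.19 in striatum and 2.44 in tibialis. Cortex and striatum were not told apart for Irf9 (edgeR adjusted p = 0.956). Irf1 stood at 14.8 FPKM in liver, 8.40 in heart, 4.03 in tibialis, 3.37 in cortex and 2.01 in striatum, and each neighbouring pair differed. Irf3, the most abundant member in wild-type liver at 25.0 FPKM, was at 14.2 in heart, 13.96 in striatum, 12.6 in cortex and 8.48 in tibialis, with striatum and cortex not told apart (edgeR adjusted p = 0.154).

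Irf2 stood at 22.7 FPKM in liver, 11.3 in cortex, 6.67 in striatum, 5.94 in heart and 5.67 in tibialis. Irf5 was the member whose highest wild-type tissue was muscle among those above 1 FPKM, at 6.32 FPKM in tibialis, 5.71 in liver, 1.52 in striatum, 1.37 in heart and 1.26 in cortex, and tibialis and liver were not told apart (edgeR adjusted p = 0.0787). Irf8 was at 2.18 FPKM in striatum, 1.75 in liver, 1.41 in cortex, 1.39 in heart and 1.15 in tibialis. Irf4 was under 0.34 FPKM in every tissue, from 0.334 in tibialis to 0.103 in liver, with cortex and striatum not told apart (edgeR adjusted p = 0.905).

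The order between brain and the other organs depends on the scaling. On scaled counts, heart exceeded striatum for Irf2 by 0.73, for Irf5 by 0.73 and cortex for Irf8 by 0.95 on the log2 scale, liver exceeded striatum for Irf8 by 0.78 and for Irf4 by 0.88, and tibialis exceeded cortex for Irf3 by 0.83, each against the FPKM order. Tested as log2 FPKM with limma, heart and striatum were not told apart for Irf2 (adjusted p = 0.11), Irf3 (0.936) and Irf5 (0.441), nor heart and cortex for Irf8 (0.857) and Irf9 (0.668). For Irf9, striatum exceeded tibialis by 1.07 on log2 FPKM (limma adjusted p = 4.61e-11). On scaled counts the 2 were not told apart, at -0.19 for striatum minus tibialis (edgeR adjusted p = 0.0715). On both scales liver was the highest tissue for Irf1, Irf2, Irf3, Irf7 and Irf9, and tibialis and liver exceeded both brain regions for Irf5.

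**Figure D5:**
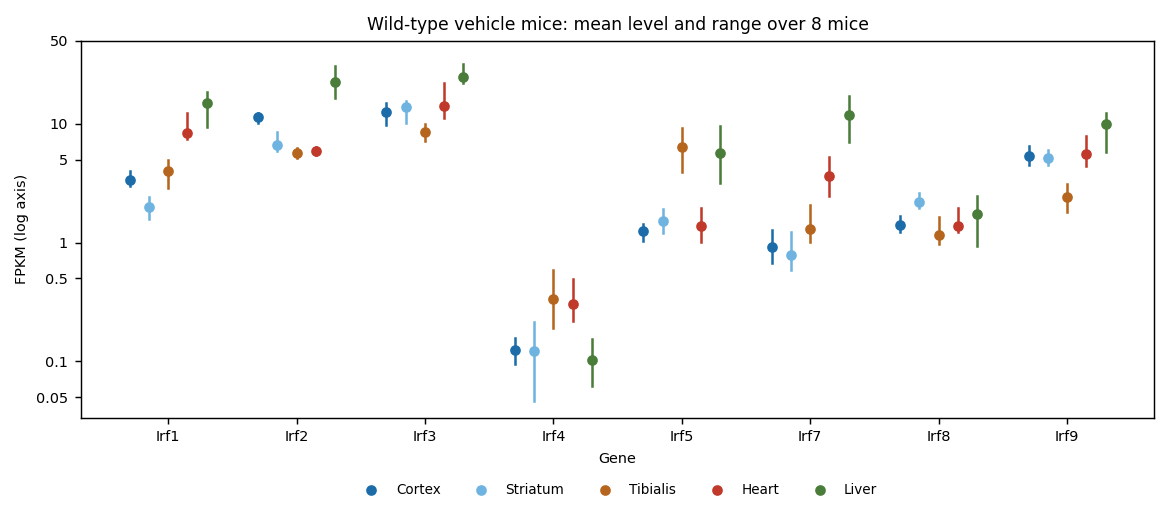
Mean FPKM of the 8 members in wild-type mice on a log axis, with bars for the range over 8 mice, in each of the 5 tissues. Liver is highest for Irf1, Irf2, Irf3, Irf7 and Irf9, while Irf5 is highest in tibialis (6.32 FPKM) and Irf4 stays under 0.34 FPKM.

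The genes most like each member were taken by Pearson's r over the 20 tissue and arm means of log2 FPKM, a description in which all points share libraries and depth, and over the 160 libraries after removal of tissue, arm and sex means. Irf7 was most like Rtp4 (0.993), Oas1g (0.983) and Isg15 (0.974) over the means, and most like Oas1a (0.741), Oasl2 (0.729) and Trim30a (0.71) over the residuals. Irf9 was most like Mx2 over the means (0.974) and most like Stat2 (0.701), Ifit3 (0.685) and Ifit3b (0.68) over the residuals. Irf1 was most like Parp10 over the means (0.988) and Irf9 over the residuals (0.556). For Irf2 the nearest gene was Lurap1l over the means (0.985) and Ctsc over the residuals (0.533). For Irf3 it was Fam136a over the means (0.984), and the residuals gave Rpl13a (0.822), Ddrgk1 (0.816) and Ndufa13 (0.814). For Irf4 it was Fbln5 over the means (0.967), and the residuals gave Arxes2 (0.678), Cidec (0.676) and Slc25a1 (0.676). For Irf5 the nearest was Zfp750 over the means (0.873) and Cd37 over the residuals (0.512), the lowest values of the 8 members. For Irf8 it was Cd72 over the means (0.933) and Cyth4 over the residuals (0.675).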

How the data were processed

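Total RNA of 5 tissues from 32 mice was sequenced as 160 libraries of 30148000 to 39043000 summed expected counts. The authors made and deposited, for 43432 Ensembl genes, 1 column of expected counts (estimated per gene, not normalized) and 1 of FPKM (scaled by gene length and depth) for each library. Of the nonzero expected counts 67.7% were whole numbers. CASAVA 1.8.2 is the tool named in the submitters' processing notes, and what aligned and counted the reads, with which annotation and whether by strand, is not given in the sources used. Symbols, coordinates and overlaps came from GENCODE M21 (GRCm38), which named 42548 of the genes. Promoter windows came from RefSeq (GRCm38.p6).

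The members and the gene lists were chosen with earlier results of these data known. Expected counts were rounded, filtered with filterByExpr by arm and scaled by TMM, and each tissue's 32 libraries were fitted with edgeR 4.0.16 (R 4.3.3, quasi-likelihood test, arm and sex as terms). P values were adjusted over all genes by the Benjamini-Hochberg method and called under 0.05. CPM in the text are TMM-scaled. Genotype effects were compared between tissues with limma 3.58.1 on each mouse's difference in log2 CPM (prior count 2) over the 16 vehicle mice, in 10 tissue pairs. Wild-type levels between tissues were tested with edgeR with mouse as a block. On simulated counts, known changes were given to genes above a floor of mean level. The test called 92% to 100% of genes changed by 1 on the log2 scale and 56% to 93% of those changed by 0.5.

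Alternatives were RLE scaling, no filter, DESeq2 1.42.0, the replicate number as a block, the 2 arms of a comparison fitted alone, and limma on log2 FPKM with a pseudocount of 0.1 or 1 (mean FPKM of at least 0.5, or no filter at 0.1). Chosen after seeing the data were the comparison of 100 with 30 mg/kg and the fits without the 9 libraries short of long transcripts, without the libraries (or, between tissues, the mouse) whose sex genes go against their label, and without each single library. The text names the 8 members, up to 4 genes per list and tissue past the test with the smallest p, and the 3 genes most like each member by each measure, and other genes named serve as label checks, markers or overlapping neighbours. Of the list symbols, Gbp5 and Gbp6 were not matched. Protein sequences were not used here, and values of some list genes are not reported here.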

Additional observations from a re-analysis of the deposited data

Results flagged for a closer look

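In each tissue and arm, the highest or lowest of the 8 libraries was set against its neighbour for every member. Of 160 such groups, 22 had a library apart from the rest by Dixon's criterion, a criterion that chance meets in about 1 in 20 groups. For Irf3 these were R6/2 vehicle male 2 in striatum at 26.97 CPM (next 19.59), wild-type female 4 in striatum at a low 13.09 (next 17), 100 mg/kg male 4 in heart at 30.43 (next 19.42), wild-type male 4 in heart at 27.48 (next 20.21), 100 mg/kg male 4 in liver at 49.68 (next 41.39) and R6/2 vehicle female 4 in liver at 46.2 (next 37.25). The 5 high Irf3 values are all in libraries short of long transcripts, whose part in them was not tested. The low one, wild-type female 4 in striatum, had the highest share of long transcripts of its tissue (37.9%). For Irf1 they were 100 mg/kg male 4 at 25.98 CPM (next 20.95) and wild-type male 4 at 24.98 (next 19.27), both in heart and again short of long transcripts.

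For Irf4 they were R6/2 vehicle male 2 in striatum at 0.7693 CPM (next 0.4544), and in heart R6/2 vehicle female 4 at 12.43 (next 5.852), 30 mg/kg female 3 at 5.113 (next 2.816) and 100 mg/kg male 3 at 8.831 (next 4.617). Each of the 3 R6/2 arms thus held 1 heart library with far more Irf4 than its arm. Those at 30 and 100 mg/kg also had their arm's highest summed B cell (140.9 and 108.7 CPM) and adipocyte markers (223.0 and 292.5 CPM), whose part was not tested, while the vehicle one had 49.9 CPM for B cell and 235.8 CPM for adipocyte markers. For Irf2 they were 30 mg/kg male 2 in cortex at 28.51 CPM (next 26.48), 100 mg/kg female 4 in cortex at 29.72 (next 27.93), 100 mg/kg male 4 in heart at 17.82 (next 16.81) and 100 mg/kg male 2 in liver at 61.03 (next 48.17). For Irf5 they were 30 mg/kg female 3 in heart at 5.235 CPM (next 3.966) and R6/2 vehicle female 4 in liver at 23.56 (next 17.16). For Irf7 they were 30 mg/kg female 4 in cortex at 10.93 CPM (next 9.087), R6/2 vehicle male 4 in tibialis at a low 8.655 (next 12.29) and R6/2 vehicle female 3 in liver at 122 (next 84.94). For Irf8 it was wild-type male 4 in heart at 5.545 CPM (next 4.309). The tibialis library with low Irf7 had the highest share of long transcripts of its tissue (30.9%), as the striatum library with low Irf3 did. The deposited column headers number both apart from nearly all other libraries, and the labels do not say why. The part of either trait in these low values was not tested.

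The genotype effect (R6/2 vehicle minus wild type, log2) differed between tissues in 24 of 80 tests, given here as the first tissue minus the second with limma's adjusted p. For Irf2 the differences were -0.4278 for cortex minus striatum (0.000137), -0.3323 for cortex minus heart (0.000369), 0.3541 for striatum minus tibialis (0.00612) and -0.2585 for tibialis minus heart (0.00668). For Irf4 they were -1.8902 for cortex minus heart (limma adjusted p = 0.00229), -1.2331 for cortex minus liver (0.00351), -1.8828 for striatum minus heart (0.00717), -1.2257 for striatum minus liver (0.00621) and -1.2664 for tibialis minus heart (0.0155). For Irf5 they were 3.0071 for cortex minus tibialis (limma adjusted p = 1.08e-08), 2.8764 for striatum minus tibialis (3.15e-08), -3.251 for tibialis minus heart (1.42e-08) and -3.1729 for tibialis minus liver (4.58e-07). For Irf7 they were 0.8257 for cortex minus heart (limma adjusted p = 0.00015), 0.5418 for cortex minus liver (0.0258), 0.8131 for striatum minus heart (0.00321) and 0.6665 for tibialis minus heart (0.00341). For Irf8 they were 0.3904 for cortex minus striatum (limma adjusted p = 0.00348), -0.4461 for cortex minus heart (0.00701), -0.4625 for cortex minus liver (0.0202), -0.8365 for striatum minus heart (0.000305), -0.8528 for striatum minus liver (0.000954), -0.638 for tibialis minus heart (0.0159) and -0.6544 for tibialis minus liver (0.0278).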

How the results depend on the processing

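With RLE scaling all 41 member values kept their side of the threshold, and those past it kept their direction. The 70 counts of called members did not change by the rule used here. That rule compares counts by ratio, so a move from 2 to 3 or from 3 to 4 was not taken as a change. Without the filter on low counts, tibialis at 30 mg/kg had 1 member lower than wild type in place of 2. With the 2 arms alone, that count was also 1, and striatum with vehicle had 1 lower in place of 2. Without the libraries whose sex genes go against their label, cortex at 100 mg/kg had 1 lower in place of 2. Without their mouse, 26 in place of 24 genotype effects differed between tissues. Wild-type Irf9 on scaled counts was then also higher in tibialis, by 0.26 over cortex (edgeR adjusted p = 0.0197) and 0.23 over striatum (0.0352), against the FPKM order. DESeq2 and the replicate block each gave 2 members lower in liver at 100 mg/kg against vehicle in place of 1, and leaving out 1 library gave 1 to 2, the second gene being Irf2 (without R6/2 vehicle female 3 or 100 mg/kg male 2). The replicate numbers did not pair the samples. Same-numbered libraries had median correlations of their deviations of -0.006 in cortex, 0.002 in striatum, -0.049 in tibialis, 0.102 in heart and 0.048 in liver. By the ratio rule above, the replicate block changed no other count. The log2 FPKM scale changed more. There the median of all genes between R6/2 vehicle and wild type was 0.104 in cortex, 0.132 in striatum, 0.634 in tibialis, 0.123 in heart and 0.112 in liver, against 0.016, 0.036, 0.03, 0.013 and 0.005 for counts. In tibialis Irf2 was 0.57, 0.51 and 0.57 (pseudocount 0.1, 1, and 0.1 with no filter) in place of -0.07, and Irf8 was 0.52, 0.32 and 0.52 in place of -0.11, while the median of all genes was 0.634, 0.483 and 0.321 in those settings, so both lay below it at 0.1, Irf2 alone above it at 1, and both above it with no filter. Irf4 was in the filtered FPKM tables in heart alone. In the same order of settings, members lower than wild type numbered 0, 0 and 1 with vehicle in cortex and in striatum, 0, 0 and 1 at 100 mg/kg in both, and 0, 0 and 1 at 30 mg/kg in striatum, in place of 2 each. In cortex at 30 mg/kg they numbered 1 and 1 in the filtered tables. In tibialis at 30 and 100 mg/kg and in liver at 100 mg/kg they numbered 1 in place of 2 in all 3. Members higher than wild type numbered 6 in place of 3 in tibialis with vehicle and at 100 mg/kg in all 3 settings, 4 in place of 2 in liver at 30 mg/kg (pseudocount 1), and 4 and 4 in place of 2 in liver at 100 mg/kg in the filtered tables. With a pseudocount of 0.1, members whose genotype effect differed numbered 1 for cortex and striatum (2 for counts), 7 for cortex and tibialis (1), 1 for cortex and liver (3), 6 for striatum and tibialis (2), 1 for striatum and liver (2) and 6 for tibialis and liver (2), and members whose wild-type level differed numbered 3 in place of 7 both for cortex and heart and for striatum and heart. The cause of these changes was not tested. Leaving out R6/2 vehicle female 4 brought Irf4 in liver past the threshold at 0.71 (edgeR adjusted p = 0.039).

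Depth limits Irf4 most, whose median expected count was 10.5 in R6/2 vehicle cortex, and it left all 21 interferon ligand genes untested. On simulated counts the test called 56% of genes changed by 0.5 on the log2 scale in liver and 93% in cortex, so a difference of that size is missed more often in liver. The changed genes were drawn from those above a floor of mean level. Irf4 in cortex and striatum lies below that floor, so these rates do not cover it there. Its mean FPKM in wild-type liver (0.103) was below that in cortex (0.125) and striatum (0.123). The liver rate should therefore not be applied to Irf4 either. All comparisons of dosed mice lack dosed wild-type mice.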

Other observations

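Markers of other blood cells moved in some tissues beside the members. In tibialis 4 of 5 neutrophil markers tested were higher in R6/2 vehicle than in wild-type mice (median 3.417 against 0.03 over all genes), but the summed level was 1.08, 1.62 and 87.6 CPM (lowest, median, highest) in R6/2 vehicle libraries, against 0.626, 1.37 and 2.92 CPM in wild-type libraries, so that the means rested on the highest library. At 100 mg/kg the summed level reached 122.1 CPM in the highest library. Mpo, the granule enzyme myeloperoxidase, averaged 0.751 CPM in R6/2 vehicle and 0.0138 CPM in wild-type tibialis. T cell markers were higher for 4 of 9 in heart and 2 of 7 in liver. B cell and plasma cell markers were higher for 5 of 10 in liver and 5 of 10 in tibialis, with 1 lower in tibialis. Over all genes 6.96% were higher in heart, 6.5% in liver and 23.6% in tibialis, and 22.2% were lower in tibialis.

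Cd4, counted among the T cell markers, was far lower in the R6/2 brain, at 18.1 ± 4.5 CPM in R6/2 vehicle and 99.1 ± 15.2 CPM in wild-type striatum (SD, n = 8 each), a log2 difference of -2.46 ± 0.16 (edgeR adjusted p = 1.92e-13). Lck, a T cell kinase gene, was higher in the same striata by 0.57 ± 0.13 (edgeR adjusted p = 0.000731). Of the 10 T cell markers, 3 passed the filter on low counts in striatum, with 2 higher and 1 lower (median 0.567 against 0.036 over all genes). Of all genes 22.6% were higher and 19.8% lower there. Cd4 thus did not move with the others tested, and which cells held its RNA was not tested.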
